A study of Mus musculus with 6 samples.

Results

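The 9 genes described here encode the machinery that loads and presents peptides on MHC class II molecules in mouse cells. They were chosen by name. H2-Aa, H2-Ab1 and H2-Eb1 encode class II chains, and Cd74 encodes the invariant chain that escorts them. H2-DMa, H2-DMb1 and H2-DMb2 encode the subunits of the peptide editor H2-DM. Ciita encodes the class II transactivator, and Ifi30 encodes a lysosomal thiol reductase. All 9 were present among the 16266 genes of the deposited tables, and all 9 were among the 12219 genes with enough counts to be tested.

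RNA-seq was done on 3 libraries from Capns1 knockout (KO) and 3 from wild-type (WT) bone marrow-derived macrophages, which are cultured from mouse marrow. Every library, KO and WT, came from cells activated for 24 h with lipopolysaccharide (LPS), an outer membrane molecule of bacteria that alerts macrophages, so the effect of LPS on these genes was not measured. The study concerns deletion of Capns1, the regulatory subunit of the calpain proteases, in myeloid cells. No source used here gives the Cre driver, the mouse strain or the ages. The genotype field reads CAPNS1-KO, CAPNS2-KO and CAPNS3-KO in KO replicates 1, 2 and 3, while in the design text capns1 stands for the whole group. Whether replicates came from different animals or cultures is not stated in the labels, so p-values cover the spread between these libraries only, which may be technical.

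MHC class II molecules are alpha and beta chain pairs that carry peptides from endocytosed proteins to the surface of antigen-presenting cells, where CD4+ T cells read them. New pairs bind the invariant chain, which blocks the groove and steers them to lysosomal compartments. There cathepsins trim the invariant chain to a fragment called CLIP, and H2-DM removes CLIP and helps select tightly bound peptides. Transcription of the genes depends on CIITA, a co-activator without DNA binding of its own, which assembles on promoter-bound RFX, CREB and NF-Y. Macrophages at rest hold little class II and raise it in response to interferon-gamma.

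Library totals were 32631163 to 40913819 counts. Capns1 had 335, 370 and 298 counts in KO replicates 1 to 3, against 17055, 18934 and 21331 in WT replicates 1 to 3, so each KO library showed the loss whatever number its genotype field gave. In a principal component analysis, the first component (60% of the variance) separated KO from WT libraries. On the second (15.9%), KO replicate 2 and WT replicate 3 were each distant from the rest of their group. Macrophage markers summed to 34000 to 39100 CPM (counts scaled to a common library total) in KO and 35600 to 43000 CPM in WT libraries, with Lyz2 and Adgre1 the highest. All 10 were among the tested genes, and 1, Cd14, was called lower in KO (-0.34, edgeR adjusted p = 0.0304). Csf1r was also lower in every KO library but was not called (-0.35, edgeR adjusted p = 0.06).

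The genes of the group did not move as a block. Transcripts of the class II chains H2-Aa, H2-Ab1 and H2-Eb1 were 1.60, 1.68 and 1.62 times as abundant in KO as in WT macrophages, and those of H2-DMb1 were 6.21 times as abundant. The invariant chain Cd74, the thiol reductase Ifi30, the editor subunits H2-DMa and H2-DMb2 and the transactivator Ciita did not pass the test. In edgeR's quasi-likelihood test, with p-values adjusted over all 12219 tested genes by the Benjamini-Hochberg method, 4 of the 9 genes were called higher in KO at an adjusted p under 0.05, against 8.44% of all tested genes. None of the 9 was called lower, against 6.21% of all tested genes, although Ciita was called lower in DESeq2. Both Ciita and H2-DMa had lower levels in KO with an unadjusted edgeR p under 0.05, at 0.015 and 0.0275. The median log2 fold change, KO minus WT, was 0.091 over the 9 genes and -0.011 over all tested genes. In 4 genes every KO library lay above every WT library, an order found in 18.2% of tested genes. In 1, H2-DMa, every KO library lay below every WT library, an order found in 15.5% of tested genes. These are bulk samples, in which fewer cells of a type and less RNA per cell cannot be told apart.

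**Figure D1:**
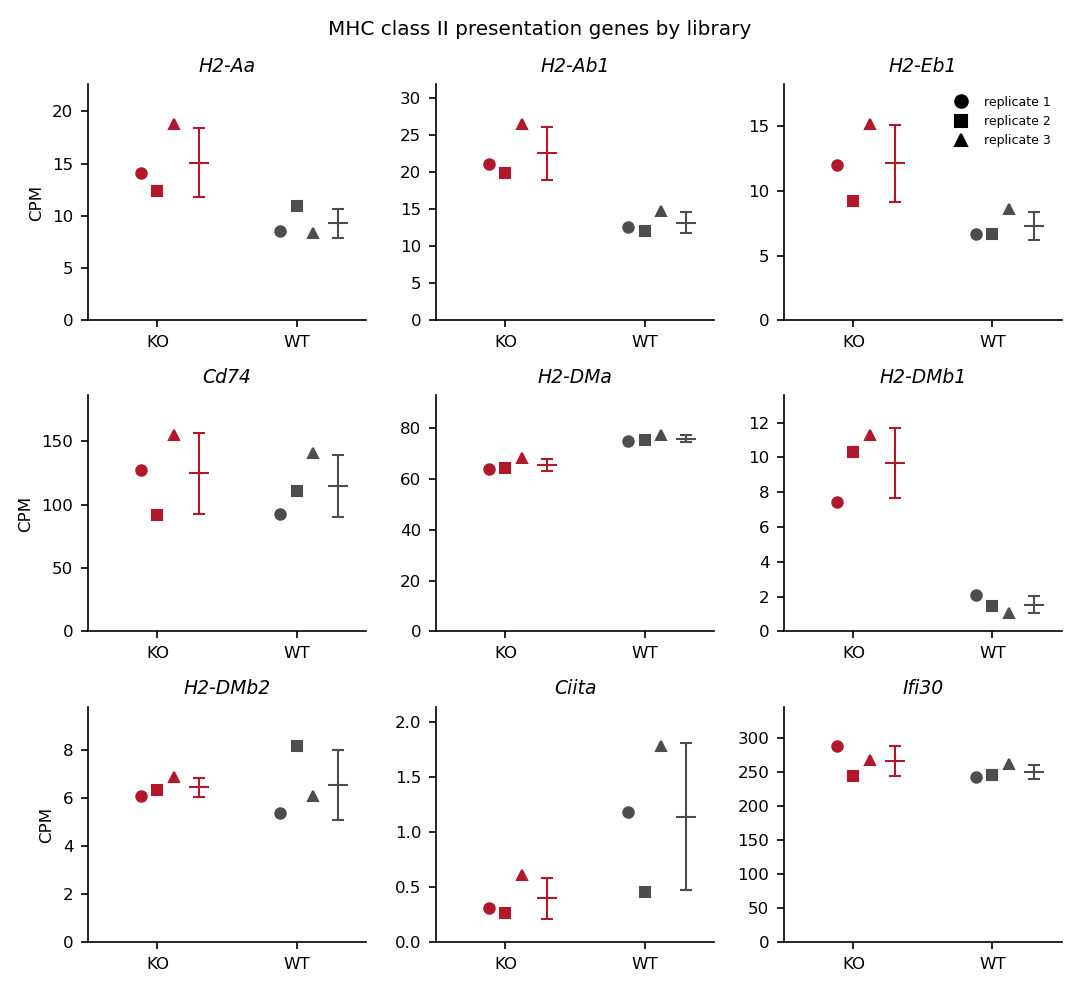
CPM of each of the 9 genes in the 3 KO libraries (red) and the 3 WT libraries (grey), with symbols for the replicate number and bars for the mean ± SD (n = 3); each panel starts at 0 and has its own scale. The groups are separate for H2-Aa, H2-Ab1, H2-Eb1, H2-DMb1 and H2-DMa, and overlap for Cd74, H2-DMb2, Ciita and Ifi30.

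**Figure D2:**
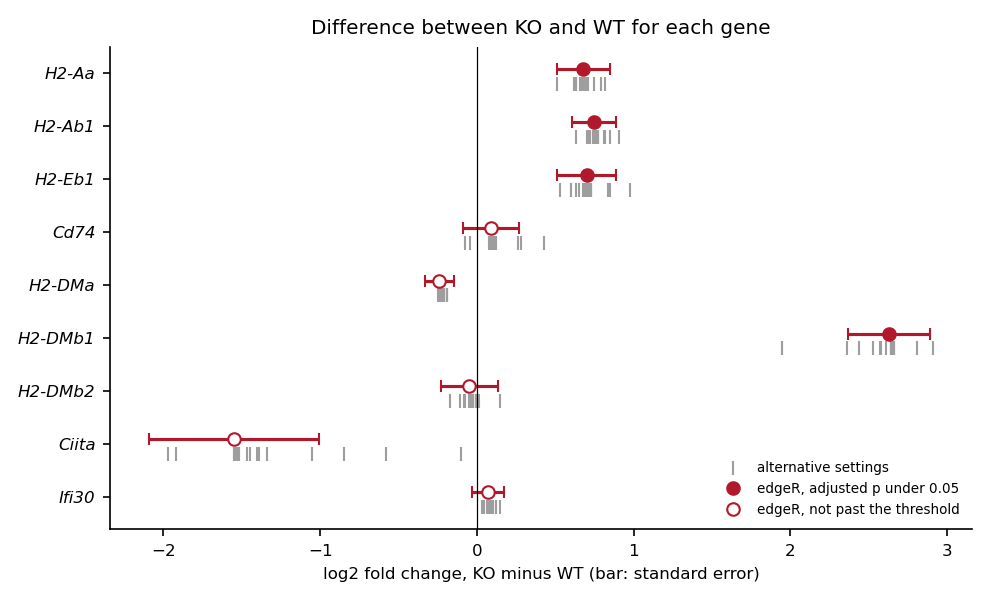
Log2 fold change, KO minus WT, of each gene in edgeR (circles, filled where the adjusted p was under 0.05, with standard errors as bars) and under each alternative setting (grey ticks). The ticks of H2-Ab1 and H2-DMb1 stay right of 0, those of Cd74 and H2-DMb2 fall on both sides of 0, and those of Ciita range from -1.97 to -0.10.

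Levels between genes can be compared only per transcript length, in FPKM (CPM divided by the gene's length in kilobases). On that scale the mean levels ran from Ifi30, at 271 ± 22.6 FPKM in KO and 254 ± 10.7 FPKM in WT libraries, down to Ciita, at 0.0407 ± 0.0192 FPKM in KO and 0.117 ± 0.0681 FPKM in WT libraries (SD, n = 3 each). Cd74 was second, at 88.1 ± 22.5 FPKM in KO and 81.1 ± 17.3 FPKM in WT libraries (SD, n = 3 each). The class II chains were far below their chaperone. H2-Ab1 averaged 18.8 ± 2.95 FPKM in KO and 11 ± 1.22 in WT libraries, H2-Aa 13.4 ± 2.95 in KO and 8.23 ± 1.27 in WT, and H2-Eb1 7.27 ± 1.79 in KO and 4.38 ± 0.655 in WT. The SDs of H2-Ab1 and H2-Aa overlapped in KO libraries. In KO libraries H2-DMa (7.86 ± 0.29 FPKM), H2-DMb1 (7.55 ± 1.58 FPKM) and H2-Eb1 lay within their SDs of each other, and H2-DMb2 (4.57 ± 0.288 FPKM) below them. In WT libraries H2-DMa (9.11 ± 0.157 FPKM) was within the SD of H2-Aa, followed by H2-DMb2 (4.65 ± 1.02 FPKM) and H2-Eb1, within their SDs of each other, and then by H2-DMb1 (1.21 ± 0.405 FPKM). Among the 16266 genes, H2-DMb1 stood at percentile 68.6 of mean FPKM in KO and 44.1 in WT libraries, H2-Ab1 at 81.8 in KO and 74.2 in WT, and Cd74 at 95.2 in KO and 94.9 in WT. The FPKM of H2-DMa rests on a length of 8325 bases in the deposited values, whereas its longest transcript in GENCODE has 2005 bases, so its place in this order is uncertain.

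Class II promoters carry a conserved module in which RFX binds the X1 box, CREB and related factors the X2 box, and NF-Y the Y box, and on this platform CIITA is recruited. The stretch before the start site is shown for genes of the group that moved differently. H2-Aa, H2-Eb1 and H2-DMb1 were higher in KO, and H2-DMb2 was not called. Each stretch runs from base -130 to base -1 before the annotated start (RefSeq, GRCm38.p6), 5′ to 3′ on the gene's strand. H2-Aa lies at chr17:34287824-34287953 (minus strand), H2-Eb1 at chr17:34305737-34305866, H2-DMb1 at chr17:34153061-34153190 and H2-DMb2 at chr17:34145119-34145248 (plus strand), where the start used lies inside the annotated span of the gene. Capitals mark TGATTGG, the Y box with its inverted CCAAT core, TGATGC, and TGACGTCA, the full cyclic AMP response element. TGATGC stands in the place of the X2 box in H2-DMb1, H2-DMb2 and, at -83, H2-Eb1. Its other copy in H2-Eb1, at -67, adjoins the Y box and is not in that place.
H2-Aa: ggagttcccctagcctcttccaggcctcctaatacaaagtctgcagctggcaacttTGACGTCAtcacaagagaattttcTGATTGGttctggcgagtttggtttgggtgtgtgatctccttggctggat
H2-Eb1: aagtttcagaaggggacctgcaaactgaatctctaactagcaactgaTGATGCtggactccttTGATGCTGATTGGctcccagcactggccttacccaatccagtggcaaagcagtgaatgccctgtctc
H2-DMb1: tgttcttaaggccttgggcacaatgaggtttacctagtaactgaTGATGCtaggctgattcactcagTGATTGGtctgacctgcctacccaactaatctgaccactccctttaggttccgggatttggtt
H2-DMb2: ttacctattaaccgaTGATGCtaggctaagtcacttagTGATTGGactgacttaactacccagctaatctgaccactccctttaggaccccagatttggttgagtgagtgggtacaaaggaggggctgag

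The Y box letters TGATTGG were present in all 4 stretches, with their first base at -50 in H2-Aa, -61 in H2-Eb1, -63 in H2-DMb1 and -92 in H2-DMb2. The promoters of H2-DMa and Ifi30, also searched, did not hold these letters, and neither held TGATGC or TGACGTCA. A promoter of H2-DMa held the shorter Y box core ATTGG, at -198, against 37.4% of all promoters. Whether the starts searched are those used in these cells was not tested. The Y box letters occurred on either strand in 7.82% of the 32851 promoters of the table, each of which runs 250 bases before to 50 after a start. TGATGC preceded the Y box in H2-Eb1 (at -83 and at -67, where it adjoins the Y box), H2-DMb1 (at -86) and H2-DMb2 (at -115), and occurred in 10.9% of all promoters. In H2-Aa the place of the X2 box was taken by TGACGTCA at -74, found in 1.79% of all promoters. H2-DMb1 and H2-DMb2 carried these letters in the same order and spacing. Over the whole stretches 87 of 159 aligned columns of H2-DMb1 and H2-DMb2 were identical (54.7%). The share was 56.5% for H2-Eb1 and H2-DMb1 and 47.7% to 50.3% for the other pairs. Columns in which 1 stretch has no base opposite count as not identical. TGATGC stands at -86 in H2-DMb1 and at -115 in H2-DMb2, so the ends of these stretches lack counterparts. Their share thus understates the likeness of the part that aligns, and the shares do not rank the pairs. The interferon-stimulated response element was in none of the promoters of the group that were matched, against 3.44% of all promoters. The gamma-interferon activated site, with the letters TTCNNNGAA, was in that of H2-DMb2 alone, at -218, against 8.3% of all promoters. All letters were searched on both strands in 6 of the 9 genes, those with an entry in the table, and the letters shown in capitals were picked after the sequences had been read. A match describes letters and does not show that a factor binds.

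The class II chains were the clearest group. H2-Aa (Entrez 14960, chromosome 17, 34282744 to 34287823, minus strand), the alpha chain of I-A, had 14.1, 12.4 and 18.8 CPM in KO replicates 1 to 3, against 8.59, 10.9 and 8.33 CPM in WT replicates 1 to 3. All KO libraries were above all WT libraries, with the narrowest gap between KO replicate 2 and WT replicate 2. Its log2 fold change was 0.68 ± 0.17 SE (edgeR, adjusted p = 0.0199). The call was lost without KO replicate 3 (0.51, edgeR adjusted p = 0.0881) or WT replicate 1 (0.63, edgeR adjusted p = 0.0778).

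H2-Ab1 (Entrez 14961, chromosome 17, 34263227 to 34269418, plus strand), the beta chain of I-A, had 21.1, 19.9 and 26.5 CPM in KO libraries, against 12.6, 12.1 and 14.8 CPM in WT libraries. The lowest KO library was well above the highest WT library. Its log2 fold change was 0.75 ± 0.14 SE (edgeR, adjusted p = 0.00435), and it was called under all 20 alternative settings, between 0.63 and 0.91. H2-Eb1 (Entrez 14969, chromosome 17, 34305867 to 34316674, plus strand), the beta chain of I-E, had 12, 9.24 and 15.2 CPM in KO libraries, against 6.66, 6.71 and 8.58 CPM in WT libraries. The groups were separate, but KO replicate 2 was close to WT replicate 3. The log2 fold change of H2-Eb1 was 0.70 ± 0.19 SE (edgeR, adjusted p = 0.0268). The call was lost without KO replicate 1 (adjusted p = 0.061), KO replicate 3 (0.111), WT replicate 1 (0.0979) or WT replicate 2 (0.088), with log2 fold changes of 0.53 to 0.73. The alpha chain of I-E, H2-Ea, was not analysed here.

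The proportions between the chains overlapped between KO and WT libraries. H2-Aa over H2-Ab1, as a ratio of FPKM, was 0.707 ± 0.0458 in KO and 0.757 ± 0.182 in WT libraries (two-sided exact permutation test, p = 0.8, n = 3 each). H2-Eb1 over H2-Ab1 was 0.383 ± 0.0432 in KO and 0.396 ± 0.0173 in WT libraries (exact permutation p = 0.8, n = 3 each). Across the 6 ratios computed in all, p-values adjusted by the Benjamini-Hochberg method were 0.2 to 0.8, and 3 libraries against 3 cannot give a p under 0.1.

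Cd74 (Entrez 16149, chromosome 18, 60803849 to 60812652, plus strand), the invariant chain and also a surface receptor for the cytokine MIF, had 127, 91.7 and 155 CPM in KO libraries, against 92.5, 111 and 141 CPM in WT libraries. The groups overlapped throughout, with the lowest library of all in KO and the lowest WT library just above it. Its log2 fold change was 0.091 ± 0.18 SE (edgeR, adjusted p = 0.803), with an approximate 95% interval of -0.27 to 0.45. It turned to -0.075 without KO replicate 3 and to -0.044 without WT replicate 1. With both libraries that stood apart left out, KO replicate 2 and WT replicate 3, it was 0.43 and was called (edgeR, adjusted p = 0.00915).

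Relative to the chains it escorts, Cd74 was lower in every KO library. The ratio restates the higher values of the chains beside those of Cd74, itself not called, and is not a separate result. The FPKM of Cd74 over the mean of the 3 chains was 7.21, 5.86 and 6.86 in KO libraries, against 8.86, 9.85 and 12 in WT libraries. The groups did not overlap, with means of 6.64 ± 0.701 in KO and 10.2 ± 1.59 in WT libraries (two-sided exact permutation p = 0.1, the smallest possible, n = 3 each). The ratio in KO was 0.649 times that in WT, and in both groups Cd74 transcripts exceeded those of the chains per length.

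The peptide editor showed the widest spread of responses. H2-DMb1 (Entrez 14999, chromosome 17, 34153191 to 34160229, plus strand), a beta subunit gene of H2-DM, had 7.44, 10.3 and 11.3 CPM in KO libraries, against 2.10, 1.46 and 1.08 CPM in WT libraries. In counts these were 262, 384 and 370 in KO, against 73, 58 and 44 in WT libraries. The lowest KO library was several times the highest WT library. In edgeR the log2 fold change was 2.63 ± 0.26 SE (adjusted p = 5.29e-05), and it was called under all 19 alternative settings that kept it as a gene of its own, between 1.95 and 2.91.

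H2-DMb2 (Entrez 15000, chromosome 17, 34143229 to 34151553, plus strand), the neighbouring second beta subunit gene, had 6.10, 6.34 and 6.90 CPM in KO libraries, against 5.39, 8.18 and 6.11 CPM in WT libraries. The KO libraries lay within the range of the WT libraries. For H2-DMb2 the log2 fold change was -0.048 ± 0.18 SE (edgeR, adjusted p = 0.902), with an approximate 95% interval of -0.40 to 0.30. Its sign was positive without KO replicate 1 (0.012) or WT replicate 2 (0.15).

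The H2-DMb1 and H2-DMb2 transcripts share sequence. Of the 32-base words in H2-DMb1 transcripts, 30.8% also occur in those of H2-DMb2, and 29.1% of the H2-DMb2 words occur in those of H2-DMb1, so reads may have been split or dropped and each value is uncertain. Summed before the fit, they had 13.5, 16.7 and 18.2 CPM in KO libraries, against 7.49, 9.64 and 7.19 CPM in WT libraries. Every KO library again lay above every WT library. The log2 fold change of the sum was 0.97 ± 0.16 SE, 1.96-fold (edgeR, adjusted p = 0.00209), and 0.90 to 1.12 when each library was left out in turn.

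The make-up of the beta subunit pool restates the counts of both genes as shares and is not a separate result. Reads split or dropped between the genes would alter these shares. H2-DMb1 gave 54.9%, 61.9% and 62.2% of the summed counts in KO libraries, against 28.1%, 15.2% and 15.0% in WT libraries, with means of 59.7 ± 4.12% in KO and 19.4 ± 7.51% in WT libraries (two-sided exact permutation p = 0.1, the smallest possible, n = 3 each). H2-DMb1 was thus the larger part in every KO library and the smaller part in every WT library.

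H2-DMa (Entrez 14998, chromosome 17, 34119693 to 34139101, plus strand), the alpha subunit that pairs with either beta product, had 63.7, 64.4 and 68.2 CPM in KO libraries, against 74.9, 75.3 and 77.3 CPM in WT libraries. It had the tightest replicates of the group and every KO library was lower, yet it was not called, with a log2 fold change of -0.24 ± 0.093 SE (edgeR, adjusted p = 0.121). It was called under none of the 20 alternative settings, between -0.25 and -0.19. The exons of H2-DMa overlap those of Brd2, on the opposite strand, over 360 bases, and 9.18% of its words are shared with Brd2. The libraries were strand-specific per the labels, but no source used here gives the strand setting of counting, so reads of Brd2 may be part of this value. Brd2 itself had a log2 fold change of -0.02 (edgeR, adjusted p = 0.938).

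The beta to alpha balance of H2-DM transcripts did not overlap between the groups. Summed H2-DMb1 and H2-DMb2 over H2-DMa, in FPKM, was 1.32, 1.62 and 1.67 in KO libraries, against 0.607, 0.767 and 0.557 in WT libraries. The ratio was 2.39 times as high in KO (1.54 ± 0.189 in KO and 0.643 ± 0.11 in WT libraries, two-sided exact permutation p = 0.1, n = 3 each). With H2-DMb2 alone over H2-DMa it was 0.581 ± 0.0155 in KO and 0.511 ± 0.114 in WT libraries (exact permutation p = 0.4, n = 3 each). The level of these ratios rests on the uncertain length of H2-DMa, which cancels in the comparison of groups. Reads of Brd2 within the H2-DMa value, or reads split or dropped between the H2-DMb genes, need not cancel. Their part in these ratios was not tested.

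**Figure D3:**
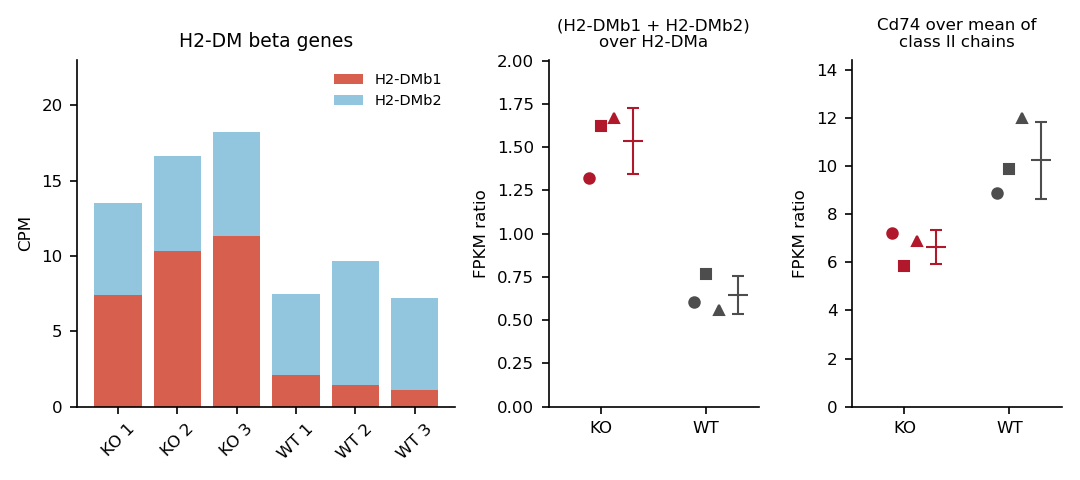
Left, CPM of H2-DMb1 and H2-DMb2 stacked for each library, KO before WT; middle and right, FPKM ratios per library (symbols) with the mean ± SD (n = 3), each axis starting at 0. H2-DMb1 is the larger part of the bar in the 3 KO libraries and the smaller in the 3 WT libraries, the beta to alpha ratio is 1.32 to 1.67 in KO and 0.557 to 0.767 in WT libraries, and Cd74 over the chains is 5.86 to 7.21 in KO and 8.86 to 12 in WT libraries.

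Ciita (Entrez 12265, chromosome 16, 10480014 to 10531064, plus strand) was near the lower limit of measurement. It had 11, 10 and 20 counts in KO libraries, against 41, 18 and 73 counts in WT libraries, or 0.312, 0.269 and 0.613 CPM in KO, against 1.18, 0.454 and 1.78 CPM in WT libraries. KO replicate 3 lay above WT replicate 2, so the groups overlapped, and the coefficient of variation was 47.1% in KO and 58.4% in WT libraries. Its log2 fold change was -1.55 ± 0.54 SE and did not pass the test (edgeR, adjusted p = 0.0800). It passed in DESeq2 (adjusted p = 0.0397) and in edgeR without WT replicate 2 (-1.92, adjusted p = 0.0328). It was -1.05 without WT replicate 3 (edgeR, adjusted p = 0.275) and -0.10 on the log2(FPKM + 1) scale, where changes of low genes are understated. Its exons overlap those of Dexi, on the opposite strand, over 329 bases, so reads of Dexi (log2 fold change -0.21, edgeR adjusted p = 0.385) may be part of this value. Chains and transactivator thus had fold changes of opposite sign, the second without passing the test.

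Ifi30 (Entrez 65972, chromosome 8, 70762773 to 70766663, minus strand), which reduces disulfide bonds of antigens in lysosomes, was the most abundant of the 9 per length. It had 288, 244 and 267 CPM in KO libraries, against 242, 245 and 261 CPM in WT libraries. The groups overlapped, and the log2 fold change was 0.072 ± 0.10 SE (edgeR, adjusted p = 0.687), with an approximate 95% interval of -0.12 to 0.26.

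Within the KO group the genes shared an order of libraries only in part. KO replicate 1 was the lowest KO library for H2-DMa, H2-DMb1 and H2-DMb2, and the highest for Ifi30. KO replicate 3 was the highest KO library for every gene of the group except Ifi30, and KO replicate 2 the lowest for H2-Aa, H2-Ab1, H2-Eb1, Cd74, Ciita and Ifi30. In WT, replicate 3 was the highest for H2-Ab1, H2-Eb1, Cd74, H2-DMa, Ciita and Ifi30 but not for H2-Aa, H2-DMb1 or H2-DMb2. Without both libraries that stood apart, KO replicate 2 and WT replicate 3, the log2 fold changes were 0.71 for H2-Aa, 0.91 for H2-Ab1, 0.98 for H2-Eb1 and 2.36 for H2-DMb1, all called in edgeR (adjusted p = 9.72e-06 to 0.00588). In that fit H2-DMa (-0.23), H2-DMb2 (-0.11), Ciita (-0.85) and Ifi30 (0.15) were not called (edgeR, adjusted p = 0.0821 to 0.766).

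Likeness to the chains was measured as the root mean square difference of centred log2 CPM from the mean of H2-Aa, H2-Ab1 and H2-Eb1 over the 6 libraries, among 9082 genes of mean CPM of at least 5. The chains themselves were at 0.0821 (H2-Ab1), 0.0926 (H2-Eb1) and 0.138 (H2-Aa), against a median of 0.429 over all these genes. Each chain is part of the mean it was compared with, so small differences for the chains were built in. Their values thus do not show that the chains vary together. Cd74 was at 0.338, Ifi30 at 0.349, H2-DMb2 at 0.42, H2-DMa at 0.49, H2-DMb1 at 1.03 and Ciita, which is below that minimum, at 1.15. The genes outside the group with the smallest difference were Abhd14b (0.0729), Ptgfrn (0.0786), Nle1 (0.0826), Mcrip2 (0.0954) and Mtdh (0.098). Abhd14b, for example, had 8.91, 7.17 and 9.68 CPM in KO libraries, against 4.90, 5.07 and 5.38 CPM in WT libraries. Ptgfrn had 30.8, 26.1 and 34.1 CPM in KO, against 16.7, 17.1 and 19.6 CPM in WT libraries. The rank of these genes rests on 6 libraries and is a description.

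Other class II locus genes were low. H2-Oa, whose product in H2-O restrains H2-DM, had 30, 18 and 13 counts in KO libraries, against 30, 54 and 30 counts in WT libraries. The groups overlapped, and its log2 fold change was -0.79 (edgeR, adjusted p = 0.261). H2-Ob, its partner, had 5, 1 and 1 counts in KO, against 3, 4 and 2 counts in WT libraries, and H2-Eb2 had a single count, in WT replicate 2. Neither could be tested. A count of 0 allows up to 3 counts, or 0.0733 to 0.0919 CPM in these libraries, for counting error only.

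Around the class II genes, other pathway genes mostly leaned lower in KO. Of the 58 tested genes in 7 lists, 2 were called higher and 13 lower, with a median log2 fold change of -0.16, against -0.011 over all tested genes, of which 8.44% were called higher and 6.21% lower. Of the 10 factors that bind class II promoters, with their co-activators, 1 was called lower and 9 were not called. The called gene was Rfx5, the DNA-binding subunit of RFX, at 13.7, 12.9 and 13.4 CPM in KO, against 17, 17.7 and 16.9 CPM in WT libraries. All KO libraries lay below all WT libraries, with a log2 fold change of -0.39 ± 0.11 SE (edgeR, adjusted p = 0.035). The call was lost on leaving out any one library (adjusted p = 0.0654 to 0.114). Rfxap (-0.16), Rfxank (-0.065), Nfya (-0.17) and Creb1 (-0.31) were not called.

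On the route by which interferon-gamma induces Ciita, 2 of 9 tested genes were called lower, against 6.21% of all tested genes. The other 7 were not called. Irf1, which activates the Ciita promoter, had 108, 106 and 97.5 CPM in KO libraries, against 146, 142 and 127 CPM in WT libraries, a log2 fold change of -0.44 ± 0.10 SE (edgeR, adjusted p = 0.0142). Usf1, an E-box factor of that promoter, had 52.7, 55.9 and 56.9 CPM in KO libraries, against 70.4, 74.4 and 65.5 CPM in WT libraries, a log2 fold change of -0.37 ± 0.10 SE (edgeR, adjusted p = 0.0281). Both were separate between groups. Both calls were lost without KO replicates 1 or 3 or WT replicates 1 or 2, with edgeR adjusted p of up to 0.08 for Irf1 and 0.153 for Usf1. The receptor chain Ifngr1 (0.13, edgeR adjusted p = 0.432) was not called.

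Of 10 other macrophage and dendritic cell regulators of Ciita, 2 were called lower, against 6.21% of all tested genes, and 8 were not called. Il10ra, a receptor chain for interleukin 10, had 179, 181 and 157 CPM in KO libraries, against 251, 242 and 240 CPM in WT libraries. The log2 fold change of Il10ra was -0.52 ± 0.10 SE (edgeR, adjusted p = 0.00501) and was called under all 20 alternatives. Irf8, a macrophage lineage factor, had 257, 260 and 249 CPM in KO libraries, against 312, 326 and 308 CPM in WT libraries (-0.33 ± 0.090 SE, edgeR adjusted p = 0.0324). Its call was lost without any single library other than KO replicate 2 (adjusted p of up to 0.136). Spi1, encoding the myeloid factor PU.1, was at -0.038 (edgeR adjusted p = 0.839).

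Among the pathway lists, that of the lysosomal proteases that process the invariant chain and antigens, with their inhibitors, had most calls. Of 11 tested genes, 5 were called lower, against 6.21% of all tested genes, and 6 were not called. In 7 every KO library lay below every WT library, an order found in 15.5% of all tested genes. Lgmn, the asparaginyl endopeptidase, had 1580, 1580 and 1590 CPM in KO libraries, against 2060, 2020 and 2050 CPM in WT libraries (-0.39 ± 0.085 SE, edgeR adjusted p = 0.0105). Ctsf, a cathepsin that can process the invariant chain in mouse macrophages, was at -0.47 (edgeR adjusted p = 0.0234), Ctsl at -0.45 (edgeR adjusted p = 0.0281) and Ctsb at -0.36 (edgeR adjusted p = 0.022). Ctss, the main protease in the last step to CLIP, averaged 2160 ± 158 CPM in KO and 2770 ± 346 CPM in WT libraries (SD, n = 3 each), a log2 fold change of -0.38 (edgeR adjusted p = 0.0417). Ctss was added by name after its value was seen, and its calls with libraries left out or under other settings are not given here. The calls of Lgmn, Ctsf, Ctsl and Ctsb were lost without KO replicate 1 or KO replicate 3. The Lgmn call was also lost without WT replicate 1, the Ctsl and Ctsb calls without WT replicate 2, and the Ctsf and Ctsb calls without WT replicate 3. In these fits the edgeR adjusted p was 0.0511 to 0.113. On log2(FPKM + 1), limma gave an adjusted p of 0.0784 for Ctsb and 0.0642 for Ctsl. Ctsd (-0.15) and the cystatin Cst3 (-0.12) were not called.

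Among 12 genes of class II trafficking and turnover, 1 was called higher and 2 lower, against 8.44% and 6.21% of all tested genes. Cd81, a tetraspanin found in class II compartments, had 86.7, 99.4 and 77.5 CPM in KO libraries, against 53.7, 49.3 and 46.6 CPM in WT libraries (0.80 ± 0.12 SE, edgeR adjusted p = 0.00126). Myo1e, a myosin linked to class II transport in dendritic cells, had 46.9, 38.4 and 44.7 CPM in KO libraries, against 75.4, 58.7 and 85.3 CPM in WT libraries (-0.78, edgeR adjusted p = 0.00339). Both calls held under all 20 alternatives. Cd83, which stabilises surface class II against the ligase MARCH1, was low, at 0.596, 0.645 and 0.827 CPM in KO libraries, against 1.38, 1.31 and 2.69 CPM in WT libraries (-1.41 ± 0.38 SE, edgeR adjusted p = 0.0289). Its call was lost without any single KO library or WT replicate 3 (edgeR adjusted p = 0.0578 to 0.147), and with both KO replicate 2 and WT replicate 3 left out (-0.96, edgeR adjusted p = 0.154). Marchf1, encoding that ligase, was at -0.16 (edgeR adjusted p = 0.327).

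CD74 at the surface is the receptor of MIF, together with CD44 and chemokine receptors. Of 5 tested partners, 1 was called higher and 1 lower, against 8.44% and 6.21% of all tested genes. Mif had 156, 166 and 165 CPM in KO libraries, against 102, 110 and 97.3 CPM in WT libraries (0.63 ± 0.10 SE, edgeR adjusted p = 0.00128). Cxcr4 had 36.6, 33.9 and 43.2 CPM in KO libraries, against 63.2, 81.1 and 67.6 CPM in WT libraries (-0.92 ± 0.12 SE, edgeR adjusted p = 5.44e-04). Mif and Cxcr4 thus moved in opposite directions, both without overlap and under all 20 alternatives. Cd44 (0.061) was not called. Cxcr2, the other chemokine receptor of the list, had the sign of Mif but was not called (1.03, edgeR adjusted p = 0.122).

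**Figure D4:**
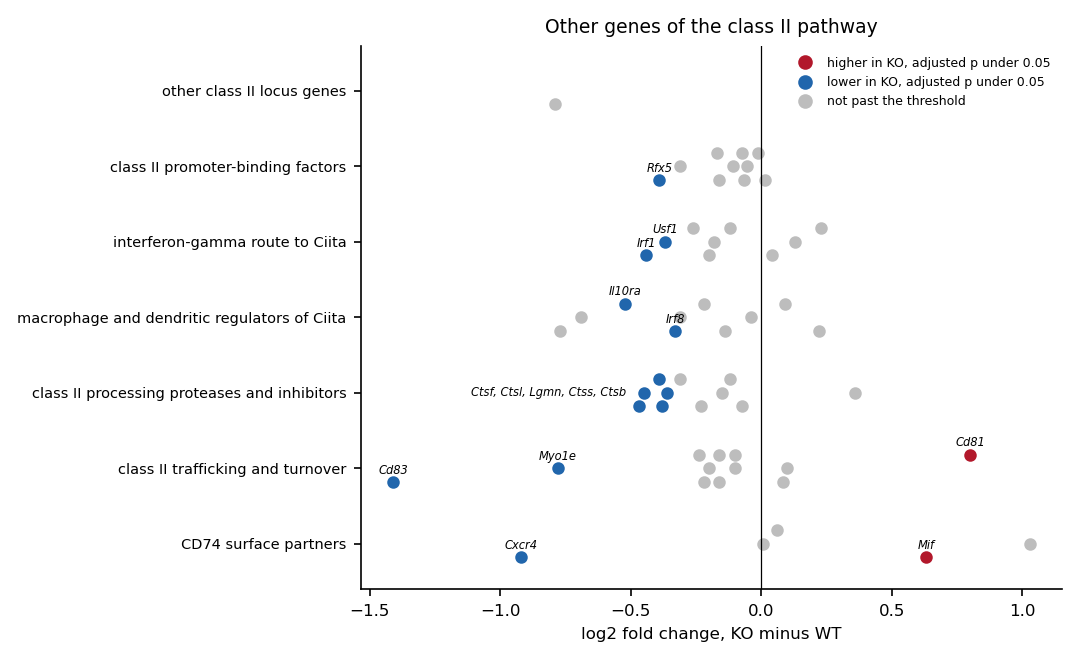
Log2 fold change, KO minus WT, of the 58 tested genes in the 7 lists of class II pathway genes, 1 point a gene, coloured by the edgeR call and named where called. Points lie mostly left of 0 (median -0.16), with 13 called lower and 2 called higher.

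Genes near the class II locus on chromosome 17 were examined for a shared change. Of 45 tested genes outside the group within 500 kb of the span 34119693 to 34316674 that holds 6 of the 9, 4 were called higher and 1 lower, or 11.1%, against 14.6% of all tested genes, with a median log2 fold change of -0.05. Within 200 kb the share was 16.7% of 18 genes, with 3 called higher and none lower, against 8.44% of all tested genes called higher. The called genes were Rps18 (1.31), H2-K1 (0.49), Angptl4 (1.54), Col11a2 and Pbx2 (-0.36). Rps18 and H2-K1 belong to families with close copies, so their values are uncertain. Col11a2 was near the counting limit in WT libraries, with 0.539, 0.376 and 0.735 CPM in KO, against 0.0576, 0.0252 and 0.0244 CPM in WT libraries.

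Markers of other cells that can express class II were examined beside these results. Dendritic cell markers, of which Fscn1 and Itgax were the highest, summed to 103 to 123 CPM in KO and 52.9 to 66.2 CPM in WT libraries. Of 11 in the list, 6 could be tested and 3 were called higher, against 8.44% of all tested genes. The called markers were Itgax (0.99), Fscn1 (0.84) and Cacnb3 (1.43), whose edgeR adjusted p were 0.00187, 0.00296 and 5.94e-04. Of the markers that were not called, Batf3 had 3.32, 2.82 and 3.92 CPM in KO libraries, against 3.80, 4.11 and 3.15 CPM in WT libraries. Zbtb46 had 0.653, 0.457 and 0.644 CPM in KO libraries, against 0.461, 0.606 and 0.293 CPM in WT libraries (0.34, edgeR adjusted p = 0.675). Dpp4 had 0.369, 0.215 and 0.184 CPM in KO libraries, against 0.346, 0.353 and 0.0978 CPM in WT libraries (-0.056, edgeR adjusted p = 0.969). Ccr7 had 11, 3 and 3 counts in KO, against 16, 9 and 11 counts in WT libraries, and was not tested. Others were at or near the counting limit. Cd209a had at most 0.107 CPM in KO and 0.0505 in WT libraries. Xcr1 had at most 3 counts in every library, Flt3 at most 0.134 CPM in KO and 0.202 in WT libraries, and Clec9a at most 0.123 CPM in KO and 0.0865 in WT libraries. B cell markers summed to 23.8 to 26.9 CPM in KO and 37.5 to 42.6 CPM in WT libraries, with Cd22 and Cd79b the highest. Fibroblast and marrow stroma markers summed to 489 to 594 CPM in KO and 191 to 235 CPM in WT libraries. Col1a2 and Bgn were the highest by mean CPM over all libraries. Of these 10 markers, 6 were called higher, against 8.44% of all tested genes. Of the other lists, T cell markers summed to 7.04 to 8.40 CPM in KO and 7.09 to 11.4 in WT libraries, with Cd4 and Lck the highest and Cd3d and Cd3g at most 3 counts in every library. Neutrophil and granulocyte precursor markers (S100a9 and Ngp the highest) summed to 992 to 1320 CPM in KO and 1030 to 1400 in WT, mast cell and basophil markers (Mcpt8 and Kit) to 2.67 to 4.88 in KO and 2.84 to 3.08 in WT, and endothelial markers (Pecam1 and Kdr) to 15.3 to 19.7 in KO and 14.7 to 19 in WT. Called in these lists were 1 B cell marker higher (Ebf1) and 1 lower (Cd22), 2 neutrophil markers higher and 3 lower, and 1 endothelial marker lower (Kdr). Of all tested genes, 8.44% were called higher and 6.21% lower. No marker analysed here was at 0 in all libraries. The T cell markers Cd3e, Cd8a and Trac and the mast cell marker Fcer1a were not analysed here. The part of the dendritic and stromal markers in the rise of the class II chains and H2-DMb1 was not tested.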

How the data were processed

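Per the labels' protocols, the 6 libraries were strand-specific and made from total RNA of macrophages. The authors deposited read counts per gene and FPKM values. Reads were handled with HTSeq, HISAT2 and fastp on mm10, per the submitters' processing notes, which name no versions. KO and WT counts were compared by edgeR's quasi-likelihood F test (edgeR 4.0.16, R 4.3.3), with TMM scaling and the filterByExpr filter, over 12219 genes. CPM are counts scaled by the library total, SE is the log2 fold change divided by the square root of F, and approximate intervals are 1.96 SE. Positions are RefSeq GRCm38.p6, through Entrez identifiers (16189 genes matched), and strands, overlaps and transcripts GENCODE vM21. Of 140 list entries, 7 were not analysed here. The 9 genes, the gene lists and the left-out pair of libraries were chosen with earlier results of these data known.

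Named were the 9 genes, Capns1, up to 4 called genes of smallest p per pathway list, the called chromosome 17 neighbours, the 5 genes most like the chains and the 2 highest markers of each list; other pathway genes and markers given with values were added after their values were seen. Alternatives were DESeq2 1.42.0, limma 3.58.1 (voom on counts, trend on log2 FPKM), other scalings and filters, a replicate block and left-out libraries. The fit was tested on simulated data, in which 200 genes were changed. Values of a few list genes are not reported here.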

Additional observations from a re-analysis of the deposited data

How the results depend on the processing

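H2-Ab1, H2-DMb1 and the summed H2-DMb genes kept direction and call under every alternative run, and H2-DMa and Ifi30 kept their direction without a call. Counts of the 9 genes called higher were 2 to 4 when each library was left out, 4 under other scalings, tools and filters, and 5 without KO replicate 2 and WT replicate 3. Counts called lower were 1 in DESeq2, 1 with the replicate block in edgeR (Ciita in both, -1.55 and -1.47) and 0 to 1 when each library was left out. Cd74 ranged from -0.075 to 0.28 and H2-DMb2 from -0.17 to 0.15 over the left-out libraries, both changing sign. Over all tested genes, calls lower in KO were 359 to 742 with a library left out, 1164 with the replicate block and 1505 without KO replicate 2 and WT replicate 3, where calls higher were 1681, against 759 called lower and 1031 called higher with all libraries. The share of neighbours called was 16.7% within 200 kb, against 11.1% within 500 kb. The causes of these shifts were not tested.

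Replicate numbers were not taken to pair libraries, since same-numbered deviations correlated at -0.0975, 0.23 and 0.18, and the replicate block changed no other call among the 9 genes. Ciita could not be tested with CPM or FPKM of at least 1 in 3 libraries. Ciita, H2-Oa, H2-Ob and Cd83 are limited by depth.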
